A study of Mus musculus with 8 samples.

Results

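The genes described here are 10 members of the BCL-2 family, namely *Bcl2*, *Bcl2l1*, *Mcl1*, *Bax*, *Bak1*, *Bcl2l11*, *Bbc3*, *Pmaip1*, *Bid*, and *Bmf*. They were found by gene name among the 29924 named genes of the array, all 10 were present, and each was represented by its brightest probe. All 10 were among the 15747 genes tested, those with a signal scored well above background on the 2 arrays of some cell type. The cells came from peripheral lymph nodes (pLN) of B6.Cg-Foxp3<tm1Mal> mice of both sexes, 8 to 14 weeks old, in which EGFP marks the cells that express Foxp3. All mice had been immunized s.c. with KLH in alum, so that no group stands for an unimmunized mouse. B220- CD4+ cells of 4 populations were sorted from pools of 8 to 15 mice at d12 and at d25 post immunization. These were naïve CD4 T cells, called naïve cells here (GFP- PD1- GL7-), TFH cells (GFP- PD1hi GL7+), Treg cells (GFP+ PD1- GL7-), and TFR cells (GFP+ PD1hi GL7+/-). The 8 one-color arrays analysed here hold 1 hybridization of each population per day, which leaves 2 arrays per population and no replicate within a day. More independent experiments are described for the series than these arrays, and they were not analysed here. The naïve gate used no marker of naïve cells beyond the absence of GFP, PD1, and GL7, and the TFR gate took in GL7+ and GL7- cells.

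The BCL-2 family decides at the outer mitochondrial membrane whether a cell lives. Its survival members, among them BCL-2, BCL-XL, and MCL-1, hold back the effectors BAX and BAK, which otherwise open pores through which cytochrome c escapes and caspases are started. BH3-only proteins such as BIM, PUMA, NOXA, BID, and BMF sense stress or the loss of growth factors and tip this balance by binding survival members or by activating the effectors. In resting T cells, cytokine signals from IL-7 and IL-2 are known to maintain BCL-2 and MCL-1, and BIM is known to end the life of many activated T cells.

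The shares of retained spots and of detected probes were similar on the 8 arrays, while raw brightness differed between cell types. Before normalization, the 75th percentile of the signal (d12 first) was 515 and 483 in naïve cells and 774 and 801 in TFH. It was 693 and 693 in Treg and 694 and 878 in TFR. Between 85.1% and 87.6% of the spots of an array were retained. Of 39429 probes, 18259 to 19868 were well above background, fewest on the naïve arrays. Levels are given in relative units (RU), the background-corrected signal after quantile normalization with the 75th percentile set to 1500 and a floor of 20. *Foxp3* and *Cxcr5* followed the sort labels. *Foxp3* was between 37235 and 49319 RU on the Treg and TFR arrays and between 65 and 358 RU on the others. *Cxcr5*, the receptor that guides cells into follicles, was 182631 and 237364 RU in TFH and 35380 and 35876 RU in TFR. It was between 1399 and 4387 RU in the other cells. *Ikzf2*, a further marker of Treg cells, did not separate TFH from Treg cells. Its levels were 10512 and 10819 RU in TFH, 9919 and 11118 RU in Treg, and 82 and 145 RU in naïve cells. *Lrrc32* and *Il2ra*, also Treg markers, were high in Treg and TFR cells only. The summed level of 6 B cell genes was 15936 RU in TFH cells of d25 and 5442 to 10030 RU on the remaining arrays, while *Pax5*, a defining B cell gene, stayed at the floor of 20 RU on all 8. A list of 6 proliferation genes summed to 25769 to 39709 RU in TFR, 10541 to 16011 RU in TFH, 4426 to 5035 RU in Treg, and 1587 to 2180 RU in naïve cells. Whether B cell RNA or the share of dividing cells had a part in the differences below was not tested. In these bulk samples, fewer cells with a transcript and less transcript per cell cannot be told apart.

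The probes that carry the main findings are shown because they decide which part of a transcript was measured. The *Bcl2* probe and the *Bcl2l11* probe lie in coding sequence, the former in the stretch for the BH1 region and the latter in the stretch for the BH3 region by which BIM binds its partners. The *Bcl2l11* probe crosses an intron, so that its 60 bases span 11096 bases of the genome. *Bcl2l1* has 2 probes, a dim one in coding sequence and a bright one 48781 bases away at the end of the transcript. The bright *Bcl2l1* probe and the *Bmf* probe each hold the letters AATAAA of a polyadenylation signal, printed in capitals within 30 bases. All sequences are 5′ to 3′ in the sense of the transcript, and positions are those of the array files in build NCBI37.
Bcl2, chr1:108608970-108609029, minus strand: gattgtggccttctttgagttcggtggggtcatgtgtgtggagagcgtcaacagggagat
Bcl2l11, chr2:127972893-127983988, plus strand: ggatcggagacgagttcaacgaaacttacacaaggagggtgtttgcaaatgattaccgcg
Bcl2l1 dim probe, chr2:152655185-152655244, minus strand: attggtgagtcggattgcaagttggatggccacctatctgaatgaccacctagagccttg
Bcl2l1 bright probe, chr2:152606413-152606442, minus strand: gtgcagttcagtAATAAAtggtgtctgtga
Bmf, chr2:118354496-118354525, minus strand: ggtacagtttttAATAAAaccatttaaagc

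Follicular cells of both kinds carried less *Bcl2* and *Mcl1* and more *Pmaip1*, *Bmf*, and *Bak1* than the cells they were compared with. In TFH versus naïve cells, 4 members were higher and 3 lower. In TFR versus Treg cells, 6 were higher and 2 lower. A gene was called when the Benjamini-Hochberg adjusted p of limma, taken over all 15747 genes, was below 0.05. These shares, 7 and 8 of 10 members, stand beside 46.6% of all tested genes called in the first comparison and 39.8% in the second. The median log2 difference of the members was 0.17 in the first comparison and 0.63 in the second, beside -0.07 and -0.08 over all tested genes. For TFR versus TFH cells, 2 members were higher and none lower, where 22.3% of all genes were called. For Treg versus naïve cells, the count was likewise 2 higher and none lower, where 9.96% of all genes were called. Comparisons that share a cell type share its arrays and are not independent of each other. Each p rests on 2 arrays per cell type from different days, and the spread it is set against is estimated over all 8 arrays. A day difference shared by the cell types is fitted, so that this spread includes any change between the days beyond the shared one.

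**Figure D1:**
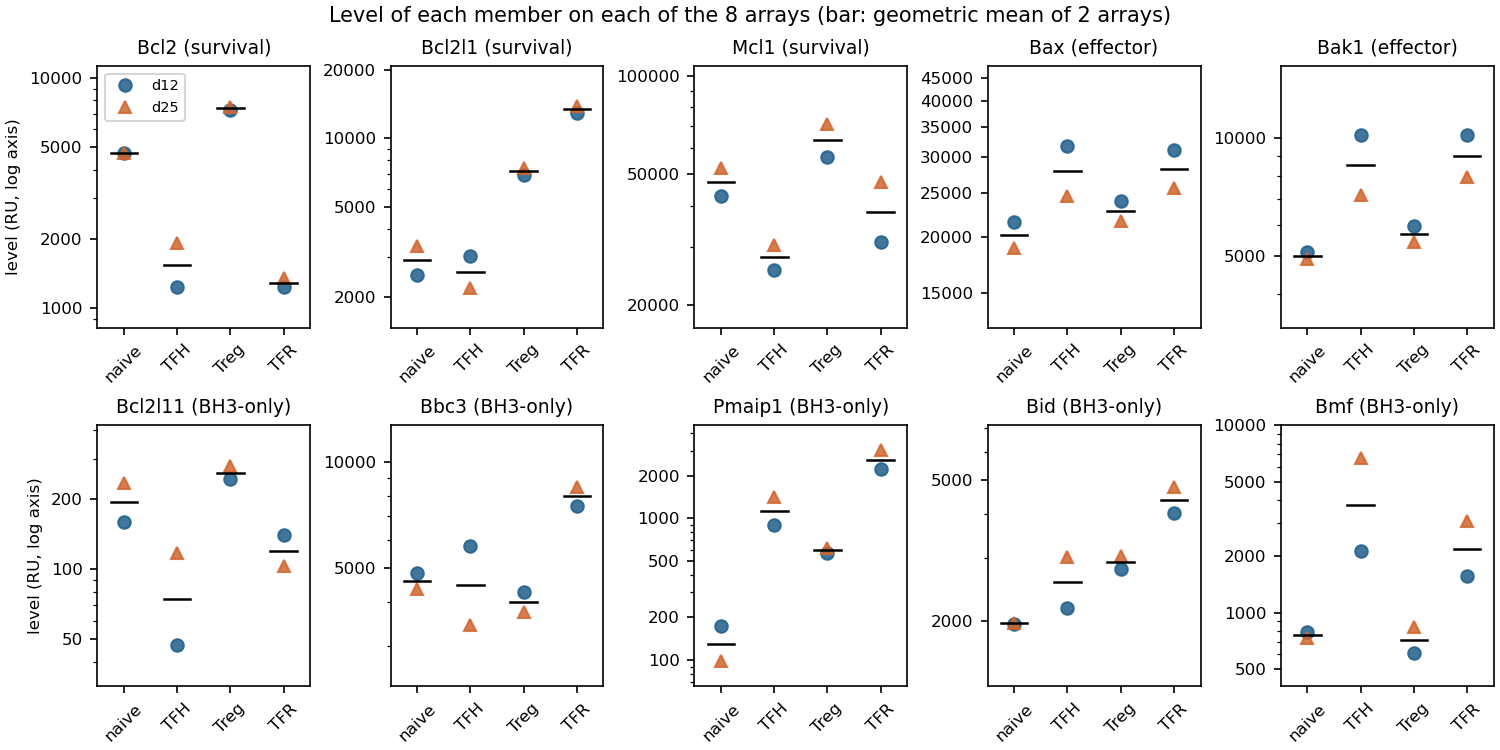
Level of each member in RU on a log axis for the 4 cell types, with circles for d12, triangles for d25, and bars for the geometric mean of the 2 arrays of a cell type. *Bcl2* is low in both follicular cell types, *Bcl2l1* is high in both Foxp3+ cell types and highest in TFR, and *Pmaip1* spans the widest range, from 98 to 3038 RU.

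**Figure D2:**
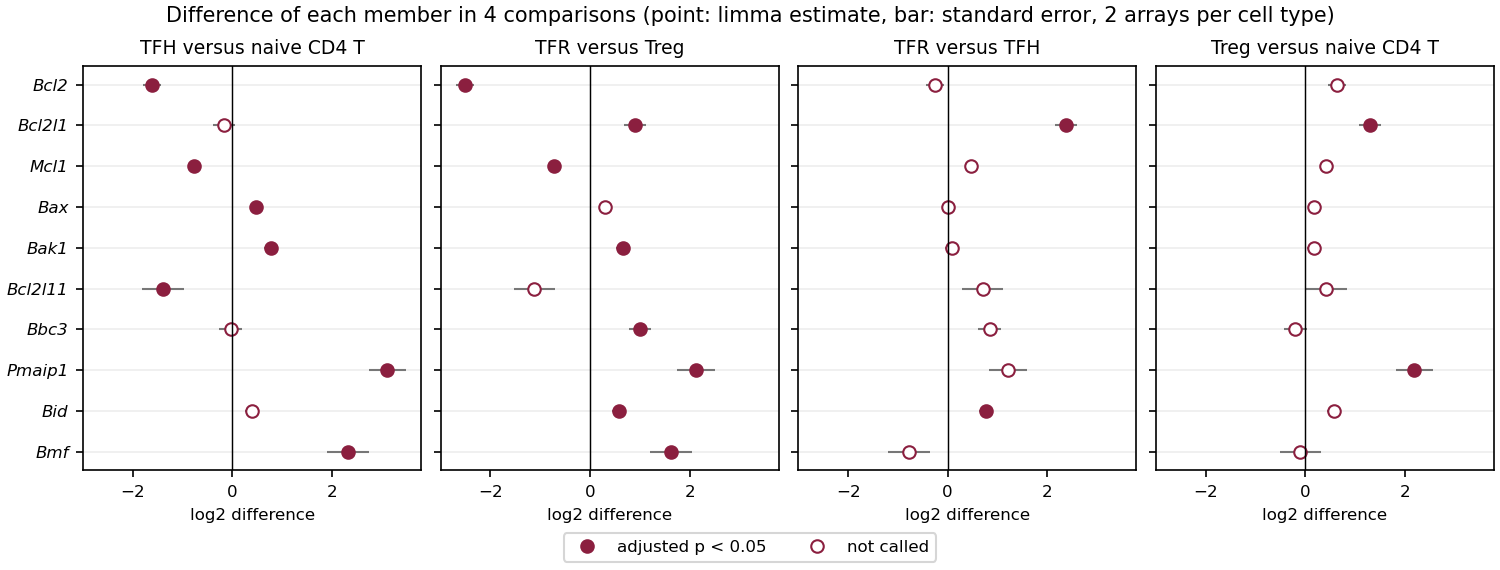
Log2 difference of each member in 4 comparisons (x axis) with its standard error from limma (bar). Filled points passed an adjusted p of 0.05, and *Bcl2l1* is the member that separates TFR from TFH cells by the largest log2 difference, 2.38.

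*Bcl2*, the founding survival member, had 4733 RU (d12) and 4708 RU (d25) in naïve cells against 1244 and 1918 RU in TFH. In Treg cells its level was 7256 and 7501 RU, and in TFR cells it was 1238 and 1352 RU. All 4 follicular arrays lay below all 4 others, and the TFH and TFR arrays overlapped. The level in TFH was 3.06-fold lower than in naïve cells (log2 difference -1.61 ± 0.18 SE, adjusted p = 0.00238). In TFR it was 5.70-fold lower than in Treg cells (-2.51 ± 0.18, adjusted p = 0.00128). Both calls held in all 18 alternative settings. Treg exceeded naïve cells by 0.64 ± 0.18 on the log2 scale without passing the threshold (adjusted p = 0.0944), and TFR and TFH differed by -0.26 ± 0.18 (adjusted p = 0.356). By these means the order was Treg, naïve cells, TFH, TFR, in which neither the first pair nor the last pair passed the test. Within the slide of each day, the difference of TFR from Treg was -2.55 at d12 and -2.47 at d25, and that of TFH from naïve cells -1.93 and -1.30. The follicular difference was larger in Foxp3+ than in Foxp3- cells in this fit (difference of the log2 differences -0.90 ± 0.25), which did not pass (adjusted p = 0.106). It passed without the TFH array of d12 (-1.18, adjusted p = 0.029) and with normexp background correction (-0.92, adjusted p = 0.0442).

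*Bcl2l1*, which encodes the survival protein BCL-XL, had another order. Its levels were 2499 and 3368 RU in naïve cells and 3025 and 2199 RU in TFH, d12 first. Treg cells had 6874 and 7436 RU, and TFR cells 12999 and 13868 RU. The 4 Foxp3+ arrays lay above the 4 Foxp3- arrays, the TFR arrays above those of Treg, and the arrays of TFH and naïve cells overlapped. TFR exceeded TFH cells 5.21-fold (2.38 ± 0.22, adjusted p = 0.00342), a call that held in all 18 alternatives. Treg exceeded naïve cells 2.46-fold (1.30 ± 0.22, adjusted p = 0.0286). TFR exceeded Treg cells 1.88-fold (0.91 ± 0.22, adjusted p = 0.0291). For TFH versus naïve cells the difference was -0.17 ± 0.22 (adjusted p = 0.558), with 0.28 at d12 and -0.62 at d25. The change from Treg to TFR exceeded that from naïve cells to TFH by 1.08 ± 0.31, which did not pass (adjusted p = 0.112) and passed without the TFH array of d12 (adjusted p = 0.043). The call for TFR versus Treg was lost as the mean of both probes (0.66, adjusted p = 0.0565) and with slide in place of day (adjusted p = 0.0581), and the latter also ended that for Treg versus naïve cells (1.24, adjusted p = 0.148).

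The dim coding probe of *Bcl2l1* gave the same order at lower signal. It read 116 and 128 RU in naïve cells, 129 and 96 RU in TFH, 269 and 342 RU in Treg, and 356 and 458 RU in TFR cells. Its difference of TFR from TFH was 1.47 at d12 and 2.25 at d25, against 2.10 and 2.66 for the bright probe. That of TFR from Treg was 0.40 and 0.42, against 0.92 and 0.90.

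*Mcl1*, a short-lived survival protein, gave 42836 and 52304 RU in naïve cells and 25543 and 30447 RU in TFH, again d12 first. Its level in Treg was 56600 and 71235 RU, and in TFR 31021 and 47467 RU. TFH lay below naïve cells and TFR below Treg on every array, while the TFR array of d25 was within the range of the naïve arrays. *Mcl1* was 1.70-fold lower in TFH than in naïve cells (-0.76 ± 0.12, adjusted p = 0.00684) and 1.65-fold lower in TFR than in Treg cells (-0.73 ± 0.12, adjusted p = 0.0102). TFR exceeded TFH by 0.46 ± 0.12 (adjusted p = 0.0536) and Treg exceeded naïve cells by 0.42 ± 0.12 (adjusted p = 0.0986). A second *Mcl1* probe gave -0.81 at d12 and -0.87 at d25 for TFH against naïve cells, where the main probe gave -0.75 and -0.78. For TFR against Treg it gave -0.81 and -0.84, where the main probe gave -0.87 and -0.59. Both *Mcl1* calls were lost when the day term was left out (adjusted p = 0.0594 and 0.0794).

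**Figure D3:**
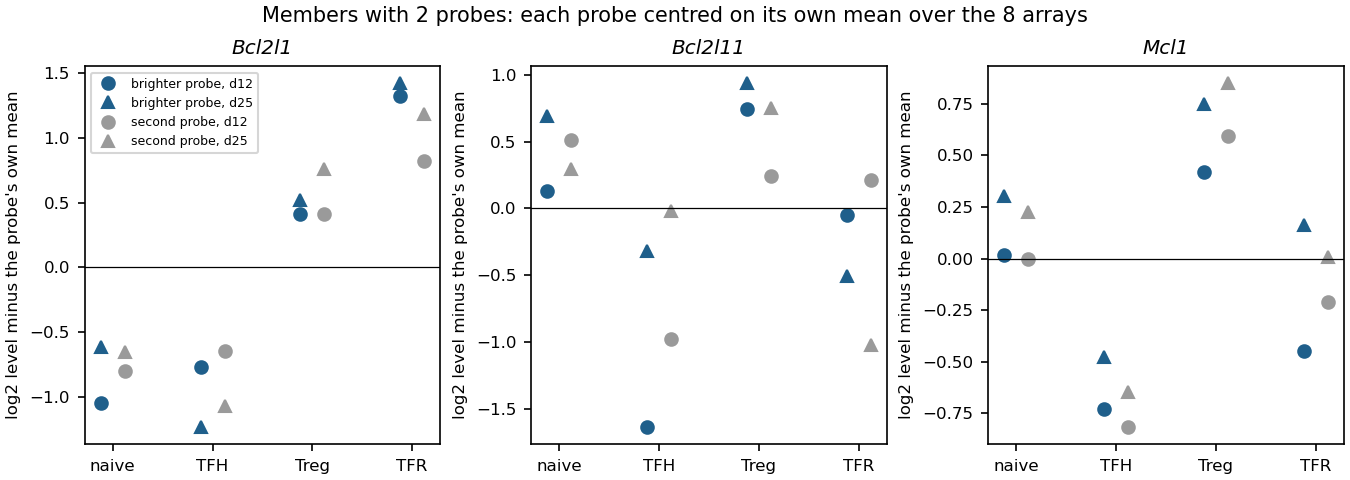
Members with 2 probes, with the log2 level of each probe minus its own mean over the 8 arrays (y axis) by cell type (x axis), circles for d12 and triangles for d25. Both probes of *Bcl2l1* and of *Mcl1* place the cell types alike, whereas the *Bcl2l11* probes part at d12, where TFR minus Treg is -0.79 by the brighter probe and -0.02 by the other.

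Of the effectors, *Bak1* was higher in both follicular cell types and *Bax* passed the test in TFH. *Bax* was 21571 and 18900 RU in naïve cells and 31854 and 24681 RU in TFH cells, and 24054 and 21654 RU in Treg and 31109 and 25615 RU in TFR cells. Both follicular cell types had higher *Bax* than their counterpart at each day, with no overlap. It rose 1.39-fold in TFH (0.47 ± 0.09, adjusted p = 0.014), while the difference of TFR from Treg, 0.31 ± 0.09, missed the threshold (adjusted p = 0.0555). The *Bax* difference of TFR from TFH was 0.01 ± 0.09 (adjusted p = 0.953), and its sign turned with 75th percentile scaling, with normexp, and with slide in place of day. The call in TFH was lost without the TFH array of d12 (0.39, adjusted p = 0.0509) and without either naïve array (0.44 and 0.51, adjusted p = 0.0894 and 0.0615).

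*Bak1* was 5102 and 4912 RU in naïve cells, 10210 and 7145 RU in TFH, 5949 and 5428 RU in Treg, and 10190 and 7979 RU in TFR cells. All 4 follicular arrays were above the others. It was 1.71-fold higher in TFH than in naïve cells (0.77 ± 0.14, adjusted p = 0.0106) and 1.59-fold higher in TFR than in Treg cells (0.67 ± 0.14, adjusted p = 0.0201). TFR and TFH differed by 0.08 ± 0.14 (adjusted p = 0.726) and Treg and naïve cells by 0.18 ± 0.14 (adjusted p = 0.467). Testing all genes without a filter on dim ones ended both calls (adjusted p = 0.0503 and 0.0788).

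Among the BH3-only members, *Pmaip1*, which encodes NOXA, an inhibitor of MCL-1, spanned the widest range. It was 174 and 98 RU in naïve cells, 895 and 1409 RU in TFH, 574 and 618 RU in Treg, and 2227 and 3038 RU in TFR cells. The 4 cell types did not overlap, and the order was TFR, TFH, Treg, naïve cells at both days. *Pmaip1* rose 8.61-fold in TFH against naïve cells (3.11 ± 0.37, adjusted p = 0.00306), a call that held in all 18 alternatives. It was 4.37-fold higher in TFR than in Treg (2.13 ± 0.37, adjusted p = 0.0122) and 4.57-fold higher in Treg than in naïve cells (2.19 ± 0.37, adjusted p = 0.0296). TFR exceeded TFH by 1.21 ± 0.37, short of the threshold (adjusted p = 0.0805). With slide in place of day, the call for Treg versus naïve cells was lost (2.01, adjusted p = 0.152).

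*Bmf*, whose product is tied to the cytoskeleton in unstressed cells, had the second largest difference of TFH from naïve cells after *Pmaip1*. Its levels were 787 and 735 RU in naïve cells and 2132 and 6697 RU in TFH cells, 606 and 837 RU in Treg and 1559 and 3094 RU in TFR cells. All follicular arrays were above all others, and in both follicular cell types the array of d25 was the higher one. *Bmf* was 4.97-fold higher in TFH than in naïve cells (2.31 ± 0.42, adjusted p = 0.0107) and 3.08-fold higher in TFR than in Treg cells (1.63 ± 0.42, adjusted p = 0.0354). The TFH array of d25, which had the highest summed B cell level, also had the highest *Bmf*. Without it, the difference of TFH from naïve cells was 1.71 and passed (adjusted p = 0.0339). TFH and TFR overlapped and differed by -0.78 ± 0.42 (adjusted p = 0.244). Testing without the filter on dim genes ended both *Bmf* calls (adjusted p = 0.0706 and 0.158), and the call in TFR also ended with slide in place of day (adjusted p = 0.0692) and without a day term (adjusted p = 0.0879).

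*Bcl2l11* encodes BIM and was dim on this array. Its levels were 160 and 236 RU in naïve cells, 47 and 117 RU in TFH, 244 and 279 RU in Treg, and 141 and 103 RU in TFR cells. The probe was well above background on 7 of 8 arrays and on 1 of 2 TFH arrays. All follicular arrays lay below all others. Against naïve cells it was 2.63-fold lower in TFH (-1.40 ± 0.42, adjusted p = 0.0459), and against Treg cells TFR differed by -1.12 ± 0.42 without passing (adjusted p = 0.0898). The latter passed with slide in place of day (adjusted p = 0.0477), with normexp (-0.60, adjusted p = 0.0209), and without either TFH array (adjusted p = 0.043). The call in TFH was lost in 8 of 17 alternatives, among them the mean of both probes (-1.14, adjusted p = 0.0968) and leaving out the TFH array of d12 (-0.79, adjusted p = 0.163), either naïve array (adjusted p = 0.14 and 0.178) or either Treg array (adjusted p = 0.0823). The second probe, at 35 to 119 RU and well above background on 6 arrays, gave -1.46 and -0.32 for TFH against naïve cells and -0.02 and -1.77 for TFR against Treg at d12 and d25.

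*Bbc3*, which encodes PUMA, a target of p53, was high in TFR cells. It was 4822 and 4347 RU in naïve cells, 5766 and 3444 RU in TFH, 4265 and 3742 RU in Treg, and 7506 and 8508 RU in TFR cells. Both TFR arrays lay above the other 6. It was higher in TFR than in Treg cells (1.00 ± 0.23, adjusted p = 0.0245). In TFH versus naïve cells the difference was -0.04 ± 0.23 (adjusted p = 0.903), with 0.26 at d12 and -0.34 at d25. The difference of TFR from TFH was 0.84 ± 0.23 (adjusted p = 0.058), and that between the 2 follicular changes 1.04 ± 0.32 (adjusted p = 0.128). Both passed without the TFH array of d12, at 1.19 (adjusted p = 0.0252) and 1.38 (adjusted p = 0.0485).

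*Bid*, the BH3-only protein that caspase-8 cleaves and so ties death receptors to mitochondria, was 1955 and 1974 RU in naïve cells, 2168 and 3032 RU in TFH, 2798 and 3044 RU in Treg, and 4032 and 4763 RU in TFR cells. TFR was above every other array. TFR exceeded Treg (0.59 ± 0.14, adjusted p = 0.0263) and TFH 1.71-fold (0.77 ± 0.14, adjusted p = 0.0196). The differences of TFH and of Treg from naïve cells were 0.38 ± 0.14 (adjusted p = 0.0724) and 0.57 ± 0.14 (adjusted p = 0.0693). With slide in place of day, neither *Bid* call held (adjusted p = 0.0542 for TFR versus Treg and 0.0866 for TFR versus TFH).

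The calls for TFR versus Treg depended on having both arrays of each cell type. Leaving out any 1 of the 4 TFR and Treg arrays left 1 or 2 of the 8 calls. *Bcl2* was called each time, and *Mcl1* without the TFR array of d25. Over all genes the calls then dropped from 6262 to between 2532 and 2824. All 10 members had the same direction at both days, so that their keeping it in each of these fits is no separate evidence. Without the filter on dim genes, *Bcl2* and *Mcl1* were called for TFR versus Treg and the other 6 were not, and the calls over all genes dropped to 3853. Without a day term *Mcl1*, *Bak1*, *Bid*, and *Bmf* were lost, with 4253 genes called. With slide in place of day *Bcl2l1*, *Bid*, and *Bmf* were lost and *Bcl2l11* was gained, with 5172 genes called. For TFH versus naïve cells, 3 of the 7 calls were left without the naïve array of d12 and 5 without that of d25, while the calls over all genes dropped from 7339 to 4321 and 4652. When the array left out belonged to a cell type, the remaining one was assumed to vary like the others.

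**Figure D4:**
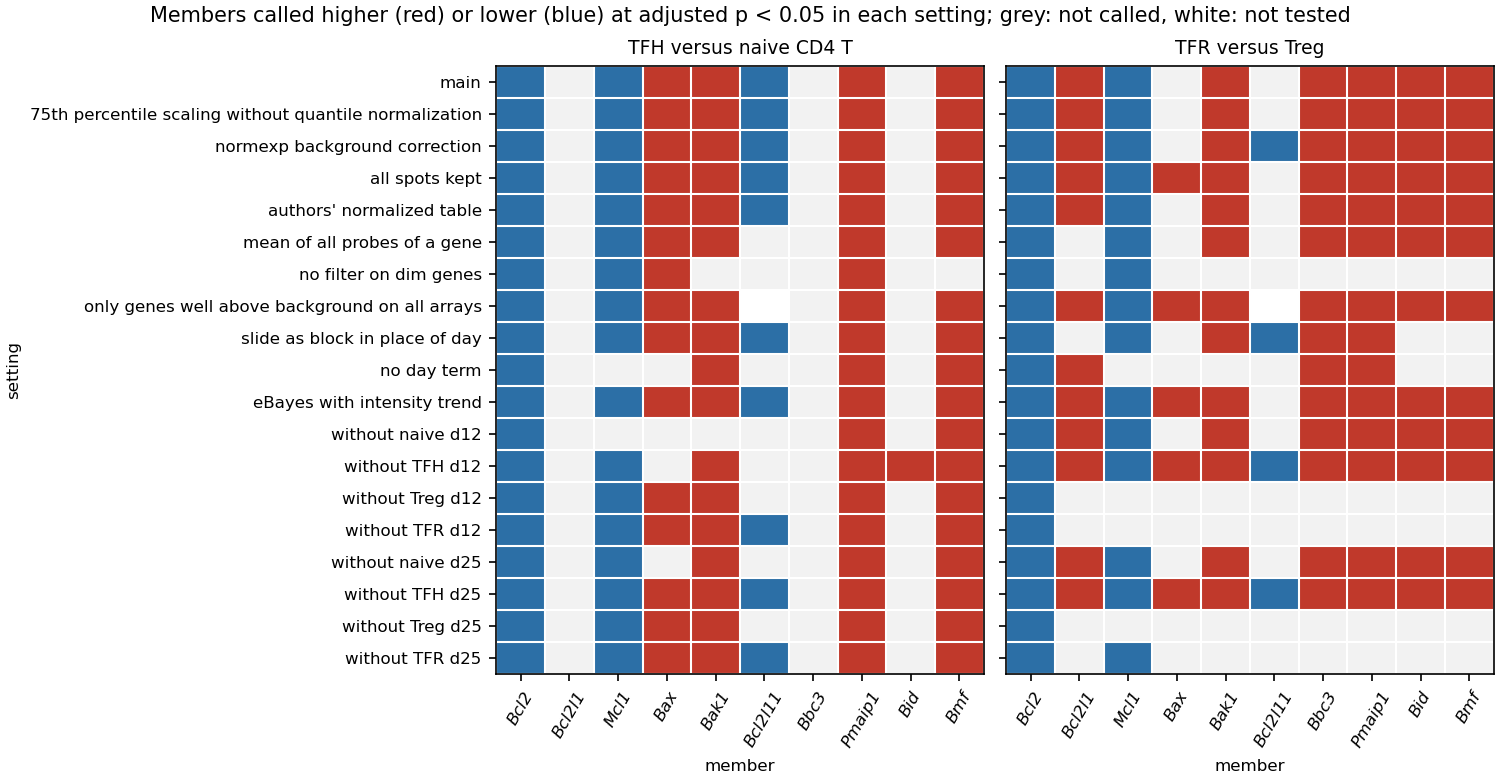
Calls of each member (x axis) in the fit reported here and in the 18 alternatives (y axis) for TFH versus naïve cells and TFR versus Treg, with red for higher, blue for lower, grey for not called, and white for not tested. The *Bcl2* column is blue throughout, whereas most calls of TFR versus Treg are absent in the 4 rows without a TFR or Treg array.

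No member passed the test of whether the follicular change differed between Foxp3+ and Foxp3- cells, a test that called 8.6% of all genes. Before adjustment, 3 of the 10 members (*Bcl2*, *Bcl2l1*, and *Bbc3*) lay below 0.05 in limma, beside 3989 of the 15747 genes tested, a similar share. None passed for d25 versus d12 either, where 14 genes or 0.0889% were called. Before adjustment, 3 of the 10 members (*Mcl1*, *Bax*, and *Bak1*) lay below 0.05, beside 4541 of 15747 genes, again a similar share. The fitted day difference was 0.37 ± 0.08 for *Mcl1*, -0.25 ± 0.07 for *Bax*, and -0.26 ± 0.10 for *Bak1*. All arrays of d12 were on 1 slide, and those of d25 were on 2 others, so that no slide held both days and a day difference cannot be told apart from one between slides. TFH and naïve cells shared a slide at each day, as did TFR and Treg cells. At d25 the comparisons of TFR with TFH and of Treg with naïve cells crossed slides.

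Of 16 further BCL-2 family genes, 14 were on the array and 11 were tested. In TFH versus naïve cells 6 rose and 1 fell, and in TFR versus Treg cells 6 rose and none fell, with median log2 differences of 0.87 and 0.73. Over all tested genes, 46.6% and 39.8% were called in these comparisons. *Bcl2a1c* and *Bcl2a1d* are copies of the survival gene A1. *Bcl2a1d* went from 16394 and 15876 RU in naïve cells to 222776 and 215164 RU in TFH (3.76 ± 0.08, adjusted p = 8.27e-05). In TFR it reached 176498 and 182036 RU, against 38198 and 36376 RU in Treg (2.27 ± 0.08, adjusted p = 0.000418). *Bcl2a1c* rose by 3.89 ± 0.09 and 2.39 ± 0.09. Since these copies are nearly identical in sequence, what belongs to which copy is uncertain, and the counts above take them as separate genes. *Bcl2l15* was 984 and 525 RU in TFH and at 21 and 20 RU in naïve cells, where it was not well above background, so that it was at least 12.3-fold higher in TFH. In TFR it reached 2635 and 3102 RU against 314 and 415 RU in Treg (2.99 ± 0.33, adjusted p = 0.00366). *Bcl2l2*, which encodes the survival protein BCL-W, was at least 3.27-fold higher in TFH than in naïve cells, where it was not well above background, and rose by 1.22 ± 0.20 in TFR against Treg (adjusted p = 0.0104).

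Some of these genes separated the follicular cell types from each other. *Bcl2l14* was 951 and 735 RU in TFR, 197 and 231 RU in TFH, and 354 and 284 RU in Treg cells. It was higher in TFR than in Treg (1.40 ± 0.17, adjusted p = 0.00493) and than in TFH (1.97 ± 0.17, adjusted p = 0.00311). *Bik*, a BH3-only gene, went the other way, with 475 and 382 RU in TFH against 167 and 174 RU in TFR (-1.32 ± 0.22, adjusted p = 0.0169). In TFH it exceeded naïve cells (266 and 148 RU) by 1.10 ± 0.22 (adjusted p = 0.014). TFR also exceeded TFH in *Bcl2l15* (1.99 ± 0.33, adjusted p = 0.0169). In Treg versus naïve cells 4 of the 11 rose and none fell, *Bcl2a1c* by 1.37 ± 0.09, *Bcl2a1d* by 1.21 ± 0.08, *Bcl2l15* at least 6.19-fold, and *Bcl2l2* at least 2.77-fold. Of all tested genes, 9.96% were called there.

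Downstream of the family, 20 genes of the apoptosome, caspases, and their inhibitors were tested. In TFH versus naïve cells 4 rose and 3 fell, and in TFR versus Treg cells 5 rose and 6 fell, with medians of -0.02 and 0.04. These 7 and 11 calls of 20 stand beside 46.6% and 39.8% of all tested genes. *Birc5*, a mitotic gene that encodes survivin, changed most. It was 9518 and 6128 RU in TFH against 1129 and 800 RU in naïve cells (3.01 ± 0.14, adjusted p = 0.000235) and 26867 and 14667 RU in TFR against 3302 and 2499 RU in Treg (2.79 ± 0.14, adjusted p = 0.000591). *Birc5* is itself one of the proliferation genes, of which all 5 tested rose in both comparisons. *Birc3*, an inhibitor of apoptosis, fell by 1.24 on the log2 scale in TFR against Treg (SE 0.19, adjusted p = 0.00833). *Endog*, a mitochondrial nuclease, fell by 0.66 in TFH (SE 0.09, adjusted p = 0.00472) and by 0.51 in Treg against naïve cells (SE 0.09, adjusted p = 0.0336). *Htra2*, a mitochondrial protease, was higher in TFR than in TFH by 0.64 ± 0.11 (adjusted p = 0.0179).

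Of 10 genes of the death receptor pathway, which meets the family at *Bid*, 2 rose and 5 fell in TFH versus naïve cells, and 2 rose and 3 fell in TFR versus Treg cells, with medians of -0.50 and -0.16. The shares called over all tested genes were 46.6% and 39.8%. *Casp8*, which cleaves BID, fell in both, by 0.90 (SE 0.08, adjusted p = 0.00122) and by 1.26 (SE 0.08, adjusted p = 0.000984). *Tnfrsf10b*, a receptor of TRAIL, fell in TFH (-1.11 ± 0.16, adjusted p = 0.00501). *Fas* was 9882 and 14292 RU in TFH against 5122 and 6467 RU in naïve cells (1.05 ± 0.10, adjusted p = 0.00136), and lower in TFR than in TFH (-0.69 ± 0.10, adjusted p = 0.0105). *Tnfsf10*, the ligand TRAIL, was 6125 and 7229 RU in TFR against 1306 and 1720 RU in TFH (2.15 ± 0.10, adjusted p = 0.000744). Its receptor gene *Tnfrsf10b* was 1002 and 987 RU in TFR against 368 and 304 RU in TFH (1.57 ± 0.16, adjusted p = 0.00428). *Tnfrsf1a*, a TNF receptor, was lower in TFR than in Treg by 0.61 on the log2 scale (fitted value -0.61 ± 0.13, adjusted p = 0.0232).

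Of 10 regulators that feed into the family through p53, Foxo factors, and stress, 2 rose and 4 fell in TFH versus naïve cells, and 2 rose and 5 fell in TFR versus Treg cells, with medians of -0.31 and -0.43. Among all tested genes, 46.6% and 39.8% were called. *Cdkn1a*, a p53 target, was 1083 and 1004 RU in TFH and not well above background in naïve cells, at least 17.9-fold higher, and was at least 5.99-fold higher in TFR than in Treg. *Foxo1*, a factor known to activate *Bcl2l11*, was 20557 and 16698 RU in TFH against 45781 and 48144 RU in naïve cells (-1.34 ± 0.12, adjusted p = 0.0013). *E2f1*, a cell cycle factor, rose by 2.34 ± 0.28 in TFR against Treg (adjusted p = 0.00439) and exceeded TFH by 1.19 ± 0.28 (adjusted p = 0.0413). *Trib3* fell by 1.39 in TFH (SE 0.21, adjusted p = 0.00582) and by 1.49 in TFR against Treg (SE 0.21, adjusted p = 0.0065).

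Of 8 genes of cytokine survival signals, 1 rose and 2 fell in TFH versus naïve cells, none rose and 3 fell in TFR versus Treg, 4 were higher and 1 lower in TFR versus TFH, and 3 were higher and 2 lower in Treg versus naïve cells. In the same order, 46.6%, 39.8%, 22.3%, and 9.96% of all tested genes were called. *Il7r*, the IL-7 receptor chain, was 41580 and 45405 RU in naïve cells, 1060 and 2538 RU in TFH, 9817 and 12140 RU in Treg, and 5326 and 9330 RU in TFR cells. It fell in TFH against naïve cells (-4.73 ± 0.29, adjusted p = 0.000477). *Il2ra*, the high affinity IL-2 receptor chain, was 14506 and 20071 RU in TFR against 226 and 249 RU in TFH (6.17 ± 0.12, adjusted p = 0.000413). *Il2rb* was higher than in naïve cells both in TFH (2.82 ± 0.13, adjusted p = 0.000252) and in Treg (3.55 ± 0.13, adjusted p = 0.000874). *Il2rg*, the common gamma chain, fell in TFH (by 0.95, SE 0.12, adjusted p = 0.00357) and in TFR against Treg (by 0.72, SE 0.12, adjusted p = 0.0105). *Pim2*, a survival kinase, was lower in TFR than in TFH (-1.18 ± 0.10, adjusted p = 0.00249).

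**Figure D5:**
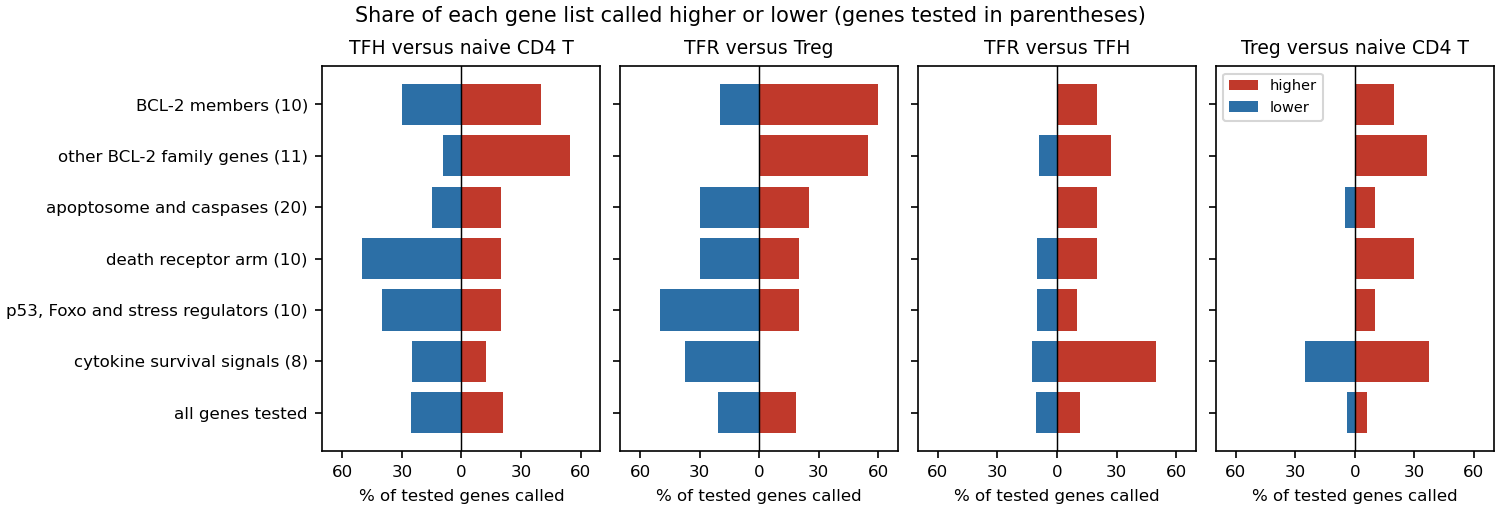
Percent of the tested genes of each list called higher (red, to the right) or lower (blue, to the left) in 4 comparisons, with the number tested in parentheses and all tested genes in the lowest bar. The bars of the members and of the further BCL-2 family genes reach further to the right than those of all genes for TFH versus naïve cells and TFR versus Treg.

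Upstream windows of 250 bases, 16 in all for 9 members, were searched on both strands for letters of known motifs in the RefSeq sequence of build GRCm38.p6. TGTTTAC, read by FOXO factors, was in windows of *Bcl2l11* and *Bbc3* and in 3.17% of all 32851 windows searched. TTTCGCGC, read by E2F factors, was in 1 window of *Bcl2l1* and in 0.256% of all. GGGCGG, the GC box, was in windows of 6 members and in 32.7% of all, and TTCNNNGAA, read by STAT factors, in none of the members' windows and in 7.02% of all. The stretches with the first pair of motifs are printed with the matching letters in capitals, since *Foxo1* and *E2f1* are among the genes above. A match describes letters and not binding. Those of *Bbc3* and *Bcl2l1* do not belong to the most upstream start listed for the gene.
Bcl2l11, chr2:128125788-128125886, plus strand: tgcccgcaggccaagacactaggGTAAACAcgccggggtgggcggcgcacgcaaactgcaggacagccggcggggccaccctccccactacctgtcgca
Bbc3, chr7:16310083-16310111, plus strand: tctggcgggttTGTTTACaaacaatgggg
Bcl2l1, chr2:152830844-152830873, minus strand: tccgcgtccctGCGCGAAAccttgagattc

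The genes nearest in pattern were sought for the 8 members whose cell type means spanned over 1 log2 unit, by the root mean square distance of log2 levels centred on the mean of each gene over the 8 arrays. *Bid* had the nearest neighbour, *Cerk*, at 0.05 log2 units (Pearson r 0.994). The nearest gene was *Fnip1* for *Mcl1* (0.11, r 0.974), followed by *Il2rg* (0.12, r 0.969). It was *H2-Ob* for *Bcl2* (0.19, r 0.987) and *Gm10413* for *Bcl2l1* (0.19, r 0.981). For *Pmaip1* it was *Gm8013* (0.24, r 0.990), for *Bmf* *Pnck* (0.27, r 0.974), for *Bbc3* *Tctn2* (0.13, r 0.961), and for *Bcl2l11* *Sik1* (0.22, r 0.961). The 8 arrays are 4 cell types in pairs, and these distances are a description without a test.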

How the data were processed

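The authors extracted spot intensities from 1-color scans with Agilent Feature Extraction 10.7.3.1 (per the labels) and deposited them with a table of normalized intensities. RNA input was 25 ng per array, and cells of each array were a pool of mice. Here the authors' steps were repeated from the deposited background-corrected spot intensity (gPS). Spots with a software flag, outside 1.42 times the interquartile range of the 4 spots of a probe, or with a pixel coefficient of variation above 0.5 were excluded. The geometric mean of the spots was quantile normalized, the 75th percentile was set to 1500 and values under 20 to 20. Log2 values correlated with the authors' deposited table at r = 0.9994 on all 8 arrays, although the brightest signal was 848220 RU here and 585162 in the table. Quantile normalization gives each array the same distribution and would hide a change of total mRNA. Well above background means that over 50% of the retained spots carried that mark, and the brightest probe by mean log2 stood for a gene. Symbols are those of the array files, and all 10 members had the same symbol in a RefSeq table (GRCm38.p6).

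The fit used R 4.3.3 and limma 3.58.1 (lmFit, eBayes; cell type and day as additive terms; 3 residual and 1.91 prior degrees of freedom), tested on simulated data. Where a gene was above background on no array of a group, an at-least fold was computed against the lowest signal well above background on each array. The one-way ANOVA with Tukey's test named in the paper needs replicates per cell type and day and was not run. The precision is limited by the number of arrays. The alternatives were another scaling, background correction, spot filter, the authors' table, the mean of all probes, filters on dim genes, slide or no term in place of day, an intensity trend, and leaving out each array.

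All 10 members are described. Of the further family genes, those called with a log2 difference of at least 1 are named, and of each pathway list up to 3 called genes with the largest difference per comparison. Some results that this rule selects are not reported here. The members and lists were chosen with earlier results of these data known.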

Additional observations from a re-analysis of the deposited data

Results flagged for a closer look

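None of the 10 members met a criterion for a closer look. Of the other genes named, 8 differed between Foxp3- and Foxp3+ cells in their follicular change by limma's test of the difference itself (TFR minus Treg, minus TFH minus naïve CD4 T, log2). That test called 8.6% of all genes. The genes had been named for large differences on the same arrays, so their number says nothing about the lists. This difference was negative for *Cdkn1a* (-2.76, adjusted p = 0.007), *Il2rb* (-2.60, adjusted p = 0.00512), *Bcl2a1d* (-1.50, adjusted p = 0.00599), *Bcl2a1c* (-1.49, adjusted p = 0.00777), and *Fas* (-1.35, adjusted p = 0.0104). It was positive for *Il7r* (4.10, adjusted p = 0.0105), *Tnfsf10* (1.57, adjusted p = 0.00783), and *Tnfrsf10b* (1.34, adjusted p = 0.0321). The fitted follicular change of *Fas* was 1.05 in Foxp3- cells and -0.30 in Foxp3+ cells, the latter not called (adjusted p = 0.0607). That of *Tnfsf10* was -0.79 and 0.77, both called. For *Tnfrsf10b* it was -1.11 and 0.22, the latter not called (adjusted p = 0.304). *Cdkn1a* was not well above background in naïve CD4 T and Treg cells, so that its value depends on levels near the floor. Groups of 2 arrays allow no search for outlying arrays.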

How the results depend on the processing

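Of 19 called differences of members, 4 were called in all 18 alternatives (*Bcl2* in TFH and in TFR, *Pmaip1* in TFH, *Bcl2l1* in TFR versus TFH) and none changed sign. Leaving out single arrays left 3 to 7 members called for TFH versus naïve CD4 T, 1 to 10 for TFR versus Treg, 1 to 4 for TFR versus TFH, 0 to 4 for Treg versus naïve CD4 T, and 0 to 3 for the difference of the follicular changes. In these fits the calls over all genes shifted as well in each comparison, so that such shifts are not particular to the members. For TFR versus TFH and the difference of the follicular changes, leaving out the TFH array of d12 gave more member calls but fewer over all genes. The 7, 8, 2, and 2 member calls of the first 4 comparisons became 4, 2, 1, and 0 without the filter on dim genes, and 4 and 4 in the first 2 without a day term. Over all genes the 7339, 6262, 3504, and 1568 calls became 5311, 3853, 1633, and 684 without the filter, and 5533, 4253, 2217, and 1001 without a day term. With slide in place of day, TFR versus Treg had 6 calls, TFR versus TFH 1, and Treg versus naïve CD4 T 0, where 5172, 1378, and 538 of all genes were called. Normexp gave 4 calls for TFR versus TFH, 4 for Treg versus naïve CD4 T, and 1 for the difference of the follicular changes. Its calls over all genes were 3947, 1776, and 1652, against 3504, 1568, and 1355 in the fit reported. An intensity trend gave 5, 4, and, for d25 versus d12, 2 calls, and the strict filter 4 for TFR versus TFH. Those of the trend over all genes were 4258, 2087, and 1152, and those of the strict filter 2997. Over all genes, calls for d25 versus d12 ranged from 0 to 1152 across alternatives, and the share of genes tested differed with the filter by construction. The cause of the other shifts was not tested.

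The sign of 28 member values, none called, turned in some alternative. *Bax* in TFR versus TFH became -0.017 with 75th percentile scaling, -0.013 with normexp, and -0.022 with slide in place of day. The difference of the follicular changes became -0.024 for *Bcl2l11* with normexp and -0.00065 for *Mcl1* with all spots kept. Leaving out single arrays gave, for TFR versus TFH, -0.0705 to 0.0900 (*Bax*), -0.0892 to 0.25 (*Bak1*), and -0.54 to 0.0283 (*Bcl2*); for TFH versus naïve CD4 T, -0.51 to 0.17 (*Bcl2l1*) and -0.38 to 0.31 (*Bbc3*); for Treg versus naïve CD4 T, -0.66 to 0.47 (*Bmf*). For the difference of the follicular changes it gave -0.33 to 0.89 (*Bcl2l11*), -0.12 to 0.20 (*Mcl1*), and -0.27 to 0.0627 (*Bak1*), and for d25 versus d12, -0.0844 to 0.21 (*Bcl2l1*) and -0.0933 to 0.40 (*Pmaip1*). Low signal limits *Bcl2l11*, which lies near the lowest level scored above background. The day, which pairs the arrays of the cell types, is a term of the fit reported.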
